A study of Mus musculus with 8 samples.

Results

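The Ifi200 or PYHIN genes form a cluster on mouse chromosome 1, next to Ackr1, the gene disrupted in the mutant mice of the study. The list held 8 of them (Ifi202b, Ifi203, Ifi204, Ifi205, Mndal, Mnda, Aim2 and Pyhin1), and its members were every non-control probe whose RefSeq transcript belongs to a listed gene. By this rule 9 of 55681 non-control probes, for 6 of the 8 genes, were members, and all 9 were among the 39098 probes kept, which exceeded background clearly (the scanner software's "well above background" flag) on both arrays of some group. No probe matched Ifi203 or Ifi205 by accession, so these genes are not analysed here. The list was chosen with the genotype difference of Ifi202b already known. Genotype differences of the listed genes are therefore given below as levels and sizes; the count of those past the threshold is printed only beside its background, and nothing is read from it. Genes outside the list were tested.

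Gene expression was measured on 8 one-colour Agilent arrays, 2 for each of 4 groups: wild-type LSK, ACKR1-deficient LSK, wild-type GMP and ACKR1-deficient GMP. LSK cells (lineage-negative, Sca1-positive, cKit-positive) contain blood stem cells and multipotent progenitors, and GMP cells (lineage-negative, Sca1-negative, cKit-positive, CD34-positive and CD16/32-positive) are granulocyte-macrophage progenitors. All cells were sorted from the bone marrow of untreated female mice aged 12 weeks, and wild-type and deficient animals were littermates of a heterozygous line that had been crossed to C57Bl/6J for more than 12 generations. The labels do not give the strain of origin of the disrupted allele, do not say whether arrays held separate animals, and do not say whether animals were pooled. P-values therefore measure only how far these samples vary, and that spread may be technical.

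PYHIN proteins usually join a pyrin domain, which binds other pyrin domains, to a HIN domain, which binds DNA. Aim2 senses double-stranded DNA in the cytosol and recruits the adaptor ASC to activate caspase-1 in an inflammasome. Ifi202b carries HIN domains without a pyrin domain, counteracts Aim2, and is known to differ in expression between inbred mouse strains, with low levels in C57BL/6. Many genes of the family are induced by interferon through response elements in their promoters and are expressed in myeloid and lymphoid cells.

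The sequence before the transcription start shows how closely some genes of the cluster are related and which of them carry an interferon element. RefSeq promoters of the GRCm38.p6 assembly were given for 7 of the 8 listed genes (9 starts, Ifi204 having none) and for 5 further PYHIN genes of the cluster. The interferon-stimulated response element core, searched as GAAANNGAAA on both strands in the 250 bases before the start, was found in 5 of the 9 listed starts and in 2.98% of 32851 mouse promoters. Within the cluster its most frequent form was GAAATCGAAA, which stood before 7 of the 14 starts and in 13 of all 32851 promoters (0.0396%), a share computed for a form picked from the cluster itself. The 100 bases before the start of 6 genes are printed 5′ to 3′ along the gene to compare this position, with the 10 bases of that form, or the place that differs from it by 1 base, in capitals.
Mndal, chr1:173880188-173880287, minus strand: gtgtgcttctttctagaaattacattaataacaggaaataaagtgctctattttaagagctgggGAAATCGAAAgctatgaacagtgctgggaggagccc
Mnda, chr1:173913047-173913146, minus strand: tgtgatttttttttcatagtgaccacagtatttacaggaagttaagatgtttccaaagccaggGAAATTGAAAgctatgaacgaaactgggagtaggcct
Ifi214, chr1:173535958-173536057, minus strand: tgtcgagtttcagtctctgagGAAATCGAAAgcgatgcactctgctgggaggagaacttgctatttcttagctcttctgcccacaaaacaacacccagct
Pyhin1, chr1:173630759-173630858, plus strand: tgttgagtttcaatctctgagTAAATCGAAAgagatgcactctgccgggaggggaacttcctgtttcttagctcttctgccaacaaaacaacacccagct
Ifi202b, chr1:173982845-173982944, minus strand: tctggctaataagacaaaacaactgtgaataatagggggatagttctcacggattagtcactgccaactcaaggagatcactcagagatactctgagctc
Aim2, chr1:173420504-173420603, plus strand: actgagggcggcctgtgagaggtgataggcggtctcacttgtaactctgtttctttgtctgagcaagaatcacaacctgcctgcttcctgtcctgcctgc
Counted from 1 at the 5′ end of GAAATCGAAA, the substitution was C6T in Mnda and G1T in Pyhin1. Pyhin1 therefore lacked the searched core although its promoter was identical to that of Ifi214 at 94.8% of 250 positions, and Ifi214 carried the full form at the same distance, 79 to 70 bases before the start. In Ifi202b and Aim2 the nearest place on the gene's strand differed from it at 4 positions, and the Ifi202b promoter was identical to the others of the cluster at 51.6% to 58.4% of positions, near the 49.2% to 56.8% of Aim2. Ifi202b alone among the 9 listed starts held TTCNNNGAA, the palindromic STAT site, as TTCTCAGAA at 148 to 140 bases before the start, a pattern present in 7.02% of all promoters. These matches describe letters in the reference sequence, and binding of a factor was not measured.

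Some arrays stood apart. On deficient LSK replicate 2, 34.3% of spots were well above background against 62.5% to 73.1% on the other 7, with a 75th percentile of signal of 24.6 against 197 to 770. Replicates correlated at 0.94 and 0.973 in wild-type LSK and GMP, but at 0.772 in deficient LSK and 0.888 in deficient GMP. The correlation of a pair does not say which array departed. Deficient GMP replicate 1 had the lowest 75th percentile of the GMP arrays, 197, and is treated below as the second array that stood apart. Of 14 marker genes of the sorted populations, 5 were called between wild-type GMP and LSK, against 1.54% of all probes. Elane and Ctsg, proteases of granulocyte-monocyte progenitors, rose in GMP by a log2 of 7.0 and 5.77, and Flt3 and Hlf, genes of early progenitors, fell by 5.99 and 4.53 (limma, adjusted p between 0.00504 and 0.022). Ly6a, the gene of the antigen Sca1 that separates the gates, was not lower in wild-type GMP (2.83 and 3.11) than in LSK (1.83 and 3.79). Fcgr3, which encodes the gate antigen CD16, rose by 5.94 (adjusted p = 0.033), and read 2.16 and 3.41 (wild type) against −0.76 and 2.20 (deficient) in GMP. All deficient samples lay in 1 column of the slide and all wild-type samples in the other, so slide column and genotype cannot be told apart. Ackr1 itself differed between genotypes by a log2 of 0.08 (SE 0.618) in LSK and 0.36 in GMP, but whether its probe lies in the deleted part is not stated, so it checks nothing about the labels.

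Levels below are log2 signal relative to the 75th percentile of the same array, so a level of 0 equals that percentile. On deficient LSK replicate 2 the dimmest probe well above background read −1.44, against −6.69 to −4.81 on the other arrays. Readings under −1.44 on that array are therefore below background.

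**Figure D1:**
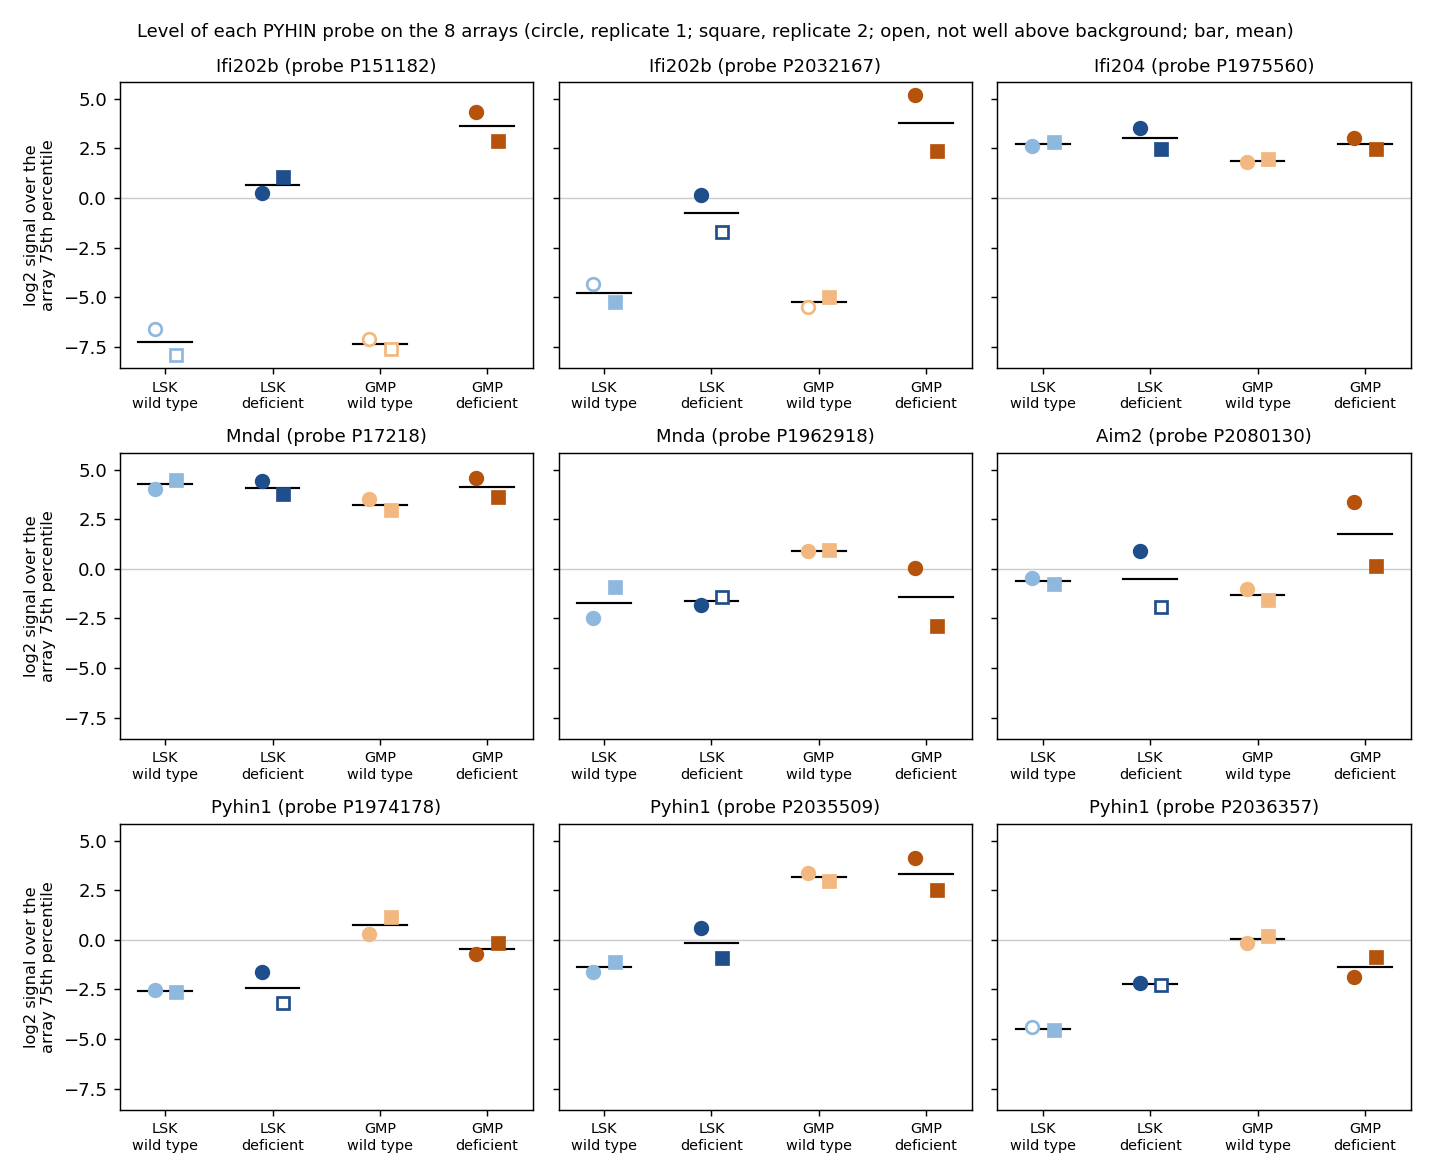
Level of the 9 PYHIN probes on each of the 8 arrays, with log2 signal over the array's 75th percentile on the vertical axis and the 4 groups on the horizontal axis (circle, replicate 1; square, replicate 2; open symbol, not well above background; bar, mean of 2 arrays). Ifi202b lies between −7.92 and −4.34 on all wild-type arrays at both probes and between −1.72 and 5.17 on all deficient ones, whereas Ifi204 and Mndal stay between 1.80 and 4.59 everywhere.

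Ifi202b was the member with the widest spread. At probe A_51_P151182 it was not well above background on any wild-type array and well above background on all 4 deficient arrays. In LSK its level was −6.59 and −7.92 (wild type) against 0.25 and 1.07 (deficient). In GMP it was −7.11 and −7.62 (wild type) against 4.34 and 2.89 (deficient). All 4 deficient arrays lay above all 4 wild-type arrays, with no overlap in either population. The same contrast in scanner units ran from 2.57 to 3.19 in wild type to 333 and 51.6 in deficient LSK and 3983 and 3492 in deficient GMP. The difference, deficient minus wild type, was a log2 of 7.91 (SE 0.786) in LSK and 10.98 in GMP. Because the wild-type spots were below background, the fold is taken against a floor: 96.2-fold higher in deficient LSK and 736-fold higher in deficient GMP. For the floor, each array of the dimmer group was given its dimmest value among probes well above background, or that of Ifi202b where higher. The floor is not a detection limit. On wild-type LSK replicate 1 it was −5.17, yet the second Ifi202b probe read −4.34 there without being well above background. With another background correction (normexp) the differences at A_51_P151182 were smaller, 3.33 in LSK and 6.31 in GMP.

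The second Ifi202b probe, A_55_P2032167, which represents another RefSeq transcript of the gene, was ordered in the same way with a smaller contrast. In LSK it read −4.34 and −5.24 (wild type) against 0.17 and −1.72 (deficient). In GMP it read −5.50 and −5.00 (wild type) against 5.17 and 2.39 (deficient). In scaled level the deficient arrays again lay above the wild-type ones in both populations, by a log2 of 4.02 (SE 1.01) in LSK and 9.03 in GMP. Wild-type replicate 2 was well above background in both populations, and deficient LSK replicate 2 was not. The scanner signal of deficient LSK replicate 2, 7.49, was lower than the 13.94 and 20.32 of the wild-type LSK arrays. Its place above them therefore holds only after scaling, and the LSK order rests on deficient replicate 1. Within each slide row, which held 1 array of each genotype, the deficient array was higher by 6.84 and 8.98 in LSK and by 11.45 and 10.50 in GMP at the former probe. At the latter probe it was higher by 4.51 and 3.53 in LSK, the 3.53 from the spot below background, and by 10.68 and 7.38 in GMP.

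Markers of other cell types differed between the same arrays. The 15 secondary and tertiary granule genes on the list, which mark maturing neutrophils, had a summed signal of 6.03 to 60.4 times the 75th percentile on the wild-type arrays and 1360 to 3650 times on the deficient ones. In LSK 11 of the 15 were called higher in deficient cells, against 0.202% of all probes, and in GMP 8 of 15, against 0.107%. Among them were Mmp8, Retnlg, Ngp and Itgb2l in LSK and Retnlg, Camp, Ngp and S100a9 in GMP. With no filter on dim probes, 2 of all probes were called in LSK and 5 in GMP, against 79 and 42. With array weights the counts were 0 and 65. Where both wild-type arrays were below background the fold is taken against the floor, 876-fold for Mmp8 and 239-fold for Itgb2l in LSK. In GMP it was 1830-fold for Retnlg. S100a9, measured on all arrays, was higher by 9.10 in GMP. The 15 erythroid genes measured summed to 7.57 to 57.7 times on wild-type and 1570 to 8460 times on deficient arrays, and 4 of 15 rose in LSK (among them Alas2, Slc4a1 and Hbb-bt) and 7 of 15 in GMP, among them Hbb-bt, Alas2, Rhd and Hbb-b2. Of the 10 measured B lineage genes 1, Ms4a1 (CD20), was called higher in both populations, 29.2-fold against the floor in GMP. Of the monocyte, dendritic, and T and NK lists 0 were called. Among the genes named here, Retnlg, Ngp, Itgb2l, Alas2, Rhd and Ms4a1 passed the filter only through deficient arrays, where they are high. Their calls are therefore not read as tests. Both gates exclude lineage-positive cells. In wild type 9 to 12 of the 15 granule genes and 9 to 12 of the 15 erythroid genes were well above background, against 14 or 15 and 13 to 15 in deficient samples. Fewer cells of a type and less RNA per cell cannot be told apart in these sorted bulk samples, and the part of these markers in the Ifi202b difference was not tested.

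**Figure D2:**
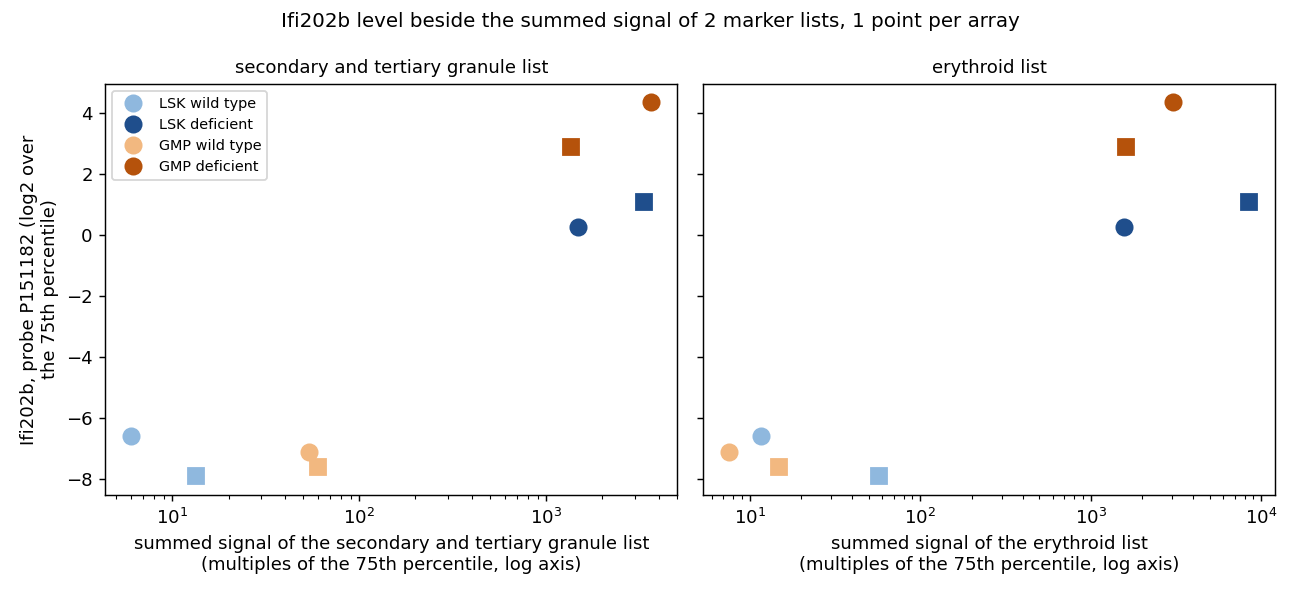
Level of Ifi202b at probe A_51_P151182 (vertical axis, log2 over the 75th percentile) against the summed signal of the secondary and tertiary granule list (left) and of the erythroid list (right), both on a log axis in multiples of the 75th percentile, 1 point per array (circle, replicate 1; square, replicate 2). The 4 wild-type arrays lie at 6.03 to 60.4 and 7.57 to 57.7 and the 4 deficient arrays at 1360 to 3650 and 1570 to 8460, with the GMP arrays above the LSK arrays among the deficient ones.

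The DNA sensor Aim2, which lies nearest to Ackr1 among the members, had a wider fitted difference between genotypes in GMP than in LSK. In LSK its probe read −0.48 and −0.78 (wild type) against 0.90 and −1.94 (deficient), and the deficient arrays fell on either side of the wild-type pair. The −1.94, on replicate 2, was below background, so the LSK difference averages a measured and an unmeasured level. In GMP it read −1.02 and −1.58 (wild type) against 3.37 and 0.14 (deficient), without overlap. The differences were 0.11 (SE 1.16) in LSK and 3.05 in GMP. The GMP value was carried mostly by replicate 1, the GMP array with the weakest signal.

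Ifi204, which has been linked to the differentiation of macrophages, and its relative Mndal were well above background on all 8 arrays. Ifi204 read 2.64 and 2.81 (wild type) against 3.52 and 2.48 (deficient) in LSK, and 1.80 and 1.95 against 3.0 and 2.46 in GMP. Mndal read 4.03 and 4.49 against 4.41 and 3.77 in LSK, and 3.53 and 2.96 against 4.59 and 3.64 in GMP. In LSK the genotypes overlapped for both genes (differences 0.28 with SE 0.667 and −0.17 with SE 0.684). In GMP the deficient arrays lay above the wild-type ones for both, by 0.85 and 0.87.

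Mnda, listed in the assembly as Ifi211, was the member with the lowest deficient relative to wild-type value in GMP. In GMP it read 0.91 and 0.94 (wild type) against 0.02 and −2.90 (deficient), a difference of −2.36 (SE 0.972) with no overlap. In LSK it read −2.48 and −0.93 in wild type and −1.82 and −1.43 in deficient cells, and the wild-type arrays enclosed the deficient pair. The −1.43, on replicate 2, was not well above background.

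Pyhin1, listed in the assembly as Ifi209, had 3 probes, which disagreed on the sign of the genotype difference in GMP. Probe A_55_P2035509, the brightest, read −1.61 and −1.13 (wild type) against 0.58 and −0.91 (deficient) in LSK, and 3.35 and 2.98 against 4.12 and 2.51 in GMP. Its genotype differences were 1.21 (SE 0.799) in LSK and 0.15 in GMP. Probe A_55_P2036357 read −4.41 and −4.54 against −2.16 and −2.27 in LSK, and −0.14 and 0.19 against −1.89 and −0.88 in GMP, so its deficient arrays were higher in LSK by 2.26 (SE 0.657) and lower in GMP by a log2 difference of −1.40. Probe A_55_P1974178 read −2.54 and −2.65 against −1.62 and −3.20 in LSK, and 0.32 and 1.17 against −0.74 and −0.15 in GMP, with differences of 0.18 (SE 0.746) and −1.19. In LSK the deficient −3.20 at this probe was below background. So were the deficient −2.27 and the wild-type −4.41 at A_55_P2036357.

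Of the 9 member probes, 1 passed an adjusted p of 0.05 between genotypes in LSK, where 0.202% of the 39098 probes did, and 2 did in GMP, where 0.107% did. These were the Ifi202b probes, A_51_P151182 in both populations and A_55_P2032167 in GMP, and since the contrast chose the list, nothing is read from these counts. The median difference of the 9 probes was 0.278 in LSK and 0.854 in GMP, against 0.203 and 0.146 over all tested probes. The LSK count fell to 0 without deficient LSK replicate 2 or either wild-type LSK array, and the GMP count to 1 without deficient GMP replicate 1 or either deficient LSK array. With another background correction (normexp) the Ifi202b differences were 3.33 and 2.62 in LSK and 6.31 and 6.25 in GMP, and without the 2 arrays that stood apart they were 7.50 and 4.96 in LSK and 10.25 and 7.64 in GMP, with 0 members past the threshold.

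**Figure D3:**
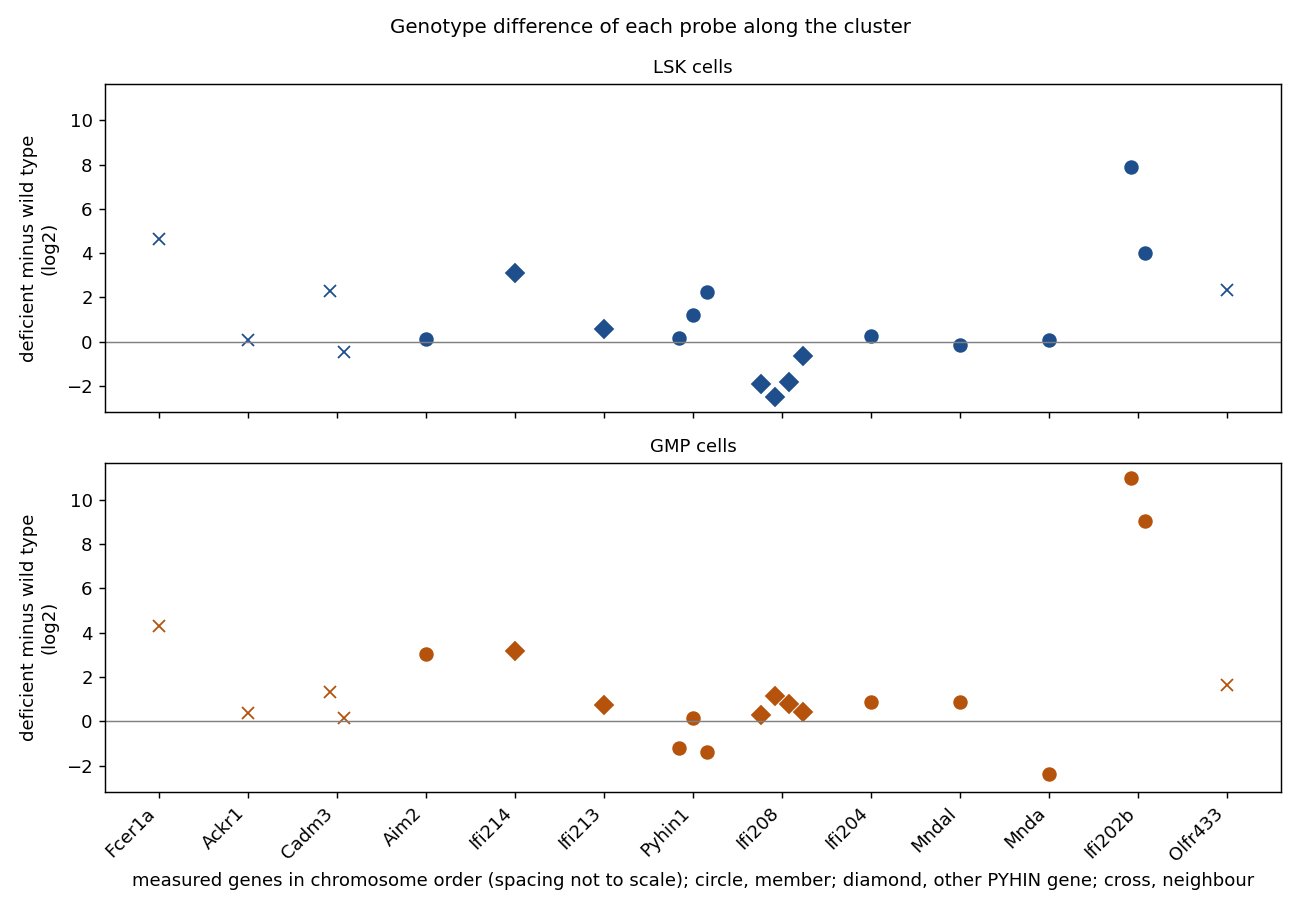
Deficient minus wild-type difference (log2, vertical axis) of each probe in LSK (upper) and GMP (lower), for measured genes in chromosome order from Fcer1a to Olfr433, not to scale (circle, member; diamond, other PYHIN gene; cross, neighbour). Probes that did not pass the filter (Ifi213 and 1 of Cadm3) and 2 Ifi208 probes below background on every GMP array are drawn too. Ackr1 lies at 0.08 and 0.36, Ifi202b at 4.02 to 10.98, and genes between them at −2.50 to 3.15.

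Along the chromosome, no measured gene outside the list passed the threshold between genotypes in the stretch from Ackr1 to Ifi202b. In the gene order of GRCm38.p6, Cadm3, an adhesion molecule gene, lies between Ackr1 and Aim2 and differed by −0.46 (SE 0.64) in LSK and 0.13 in GMP at the probe that passed the filter. Ifi202b is gene 13 from Ackr1, and among the other PYHIN genes Ifi214, gene 4, had the widest difference in both populations. Ifi214 read −4.71 and −4.71 (wild type) against −0.08 and −3.18 (deficient) in LSK, and −5.60 and −6.04 against −1.61 and −3.73 in GMP. In LSK deficient replicate 2 (−3.18) and wild-type replicate 1 were below background, so the LSK difference rests on deficient replicate 1. In GMP both wild-type arrays were below background, so no GMP fold is given for Ifi214. The Ifi214 difference of 3.09 (SE 1.05) in LSK had no adjusted p under 0.05, nor had that of 3.15 in GMP (limma, adjusted p = 0.544 and 0.871). Ifi208, gene 7, had 4 probes, of which none passed the threshold. The probes measured in both GMP groups, A_55_P2001233 and A_55_P2181222, differed by −1.92 and −1.81 in LSK and by 0.27 and 0.78 in GMP. Deficient LSK replicate 2 was below background at A_55_P2181222. The others, A_55_P2036627 and A_66_P128761, were below background on every GMP array, so no GMP difference is given for them. Olfr433, an olfactory receptor gene and the nearest measured gene beyond the cluster, was well above background on 5 of 8 arrays. In LSK it read −4.09 and −5.64 (wild type) against −5.53 and 0.47 (deficient), an overlap in which 1 array stood high, and in GMP the difference was 1.64 (SE 1.54) without overlap. On the other side of Ackr1 the nearest gene that passed the filter was Fcer1a, which encodes the alpha chain of the high-affinity IgE receptor of mast cells and basophils. In LSK Fcer1a was well above background on deficient replicate 1 alone (−1.69), so no LSK fold is given. Deficient LSK replicate 2 (−2.90) and the wild-type LSK arrays (−6.00 and −7.92) were below background. In deficient GMP it was higher by 4.32 (SE 1.04), without overlap. Neither the fitted LSK difference of 4.66 nor the GMP difference passed the threshold (limma, adjusted p = 0.24 and 0.385). Of the 20 measured genes on a list of neighbours of Ackr1, 1 passed the threshold between genotypes, against 0.202% of all probes in LSK and 0.107% in GMP. It was Itln1, the gene of the lectin intelectin 1, with fitted differences of 5.71 in LSK and 7.02 in GMP. In LSK 1 of 2 wild-type arrays was well above background, and in GMP neither was. The Itln1 probe passed the filter only through deficient arrays, where it is high, so its call is not read as a test. Whether the mutant chromosome differs in strain origin across this region was not tested.

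The comparison of GMP with LSK within a genotype was not used to choose the genes. In wild type Pyhin1 rose from LSK to GMP, while no other member passed the test. At probe A_55_P2035509 it rose 23.2-fold, or by 4.54 in log2 (SE 0.799; limma, adjusted p = 0.0232), and by 4.50 (SE 0.657, adjusted p = 0.0118) at probe A_55_P2036357. Probe A_55_P2036357 passed the filter only through its GMP arrays, and wild-type LSK replicate 1 was below background there. Its call therefore adds no separate support to that of A_55_P2035509. The third Pyhin1 probe differed by 3.34 (SE 0.746, adjusted p = 0.0687), and both GMP arrays exceeded both LSK arrays at all 3 probes. In all 2 of 9 member probes were called, both higher, against 1.54% of all probes (148 higher and 455 lower). Mnda was next, 2.63 higher in GMP (SE 0.972, adjusted p = 0.424), and its GMP arrays, too, lay above its LSK arrays. Ifi204 and Mndal differed by −0.85 (SE 0.667) and −1.02 (SE 0.684), with both GMP arrays below both LSK arrays and adjusted p of 0.987 and 0.918. Aim2 differed by −0.67 (SE 1.16, adjusted p = 1). Ifi202b was below background in both wild-type populations at probe A_51_P151182, so no fold is given, and it differed by −0.46 (SE 1.01, adjusted p = 1) at A_55_P2032167. Among the other PYHIN genes, Ifi208 read lower in wild-type GMP at probe A_55_P2036627 (difference −6.66), which was below background on every GMP array. That probe passed the filter only through wild-type LSK, where it is high, so its call is not read as a test. The brightest Ifi208 probe, A_55_P2001233, differed by −0.56 (SE 0.802). The Pyhin1 calls were lost at both probes with quantile normalization, with no filter on dim probes, and without any 1 of the 4 wild-type arrays (adjusted p from 0.106 to 0.245 over these left-out arrays).

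In ACKR1-deficient cells none of the 9 member probes passed the test between GMP and LSK, as was the case for all 39098 probes (0%, with 6327 at an unadjusted p under 0.05). This comparison shares its arrays with the differences between genotypes. Ifi202b was higher in GMP by 2.95 (SE 0.786, adjusted p = 0.169) and 4.55 (SE 1.01, adjusted p = 0.147), and both deficient GMP arrays lay above both deficient LSK arrays at both probes. Pyhin1 differed by 3.48 (SE 0.799, adjusted p = 0.147) at its brightest probe and by 1.97 and 0.84 at the others, with GMP above LSK at each. Aim2 differed by 2.27 (SE 1.16, adjusted p = 0.363) with overlapping arrays. Ifi204, Mndal and Mnda differed by −0.27, 0.02 and 0.19, all with overlap. Deficient LSK replicate 2 was below background for Mnda, Aim2, Ifi202b at A_55_P2032167 and Pyhin1 at A_55_P1974178 and A_55_P2036357. The LSK side of those differences is therefore measured on replicate 1 alone. The difference between genotypes in the GMP minus LSK value was 3.07 (SE 1.11) and 5.01 (SE 1.42) for Ifi202b, −2.45 for Mnda, 2.94 for Aim2, and −1.37, −1.06 and −3.66 for the Pyhin1 probes. None of the 9 passed the test of that difference (limma, adjusted p = 0.975 each), nor did any of the 39098 probes (0%, with 936 at an unadjusted p under 0.05), so the population differences are not shown to differ between genotypes. Between deficient populations 3 member probes were called with normexp, where 1178 of all probes were, and 3 without deficient LSK replicate 1, where 4574 were.

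**Figure D4:**
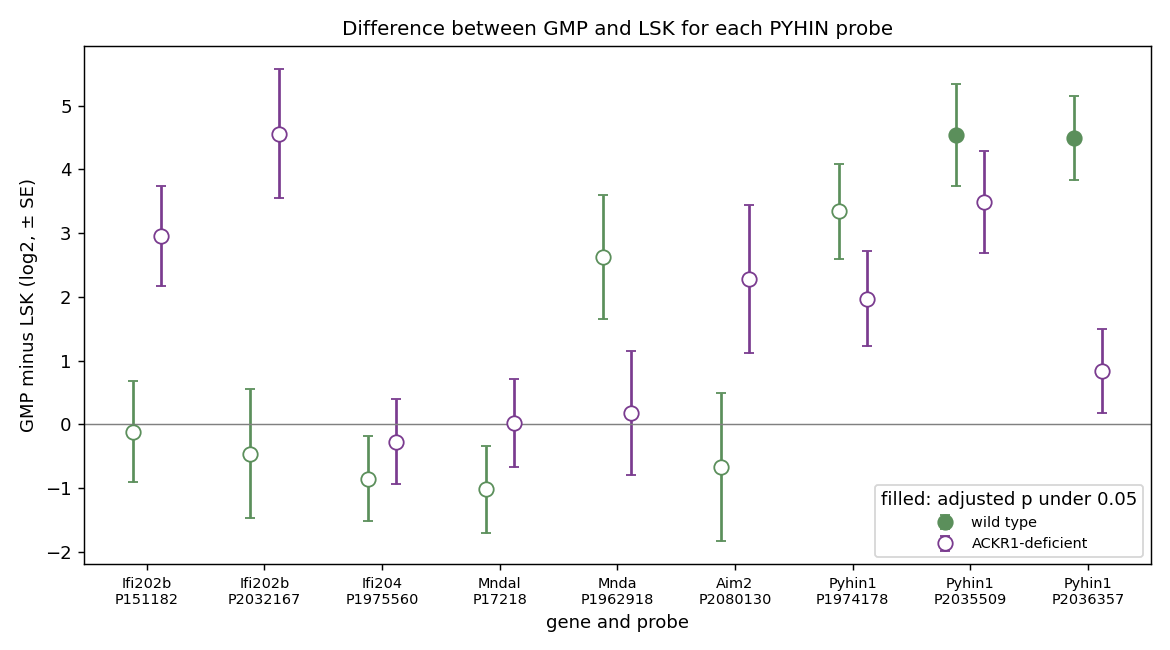
GMP minus LSK difference (log2, vertical axis) of the 9 PYHIN probes in wild-type and ACKR1-deficient cells, with the standard error of the fit over all 8 arrays as bars (n = 2 arrays per group; filled symbol, adjusted p under 0.05). The filled symbols are the Pyhin1 probes at 4.54 and 4.50 in wild type, and Ifi202b lies at −0.11 and −0.46 in wild type and at 2.95 and 4.55 in deficient cells.

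Genes of the pathways around the PYHIN proteins are given beside the share of all probes called. This share was 0.202% between genotypes in LSK, 0.107% in GMP, 1.54% between wild-type populations and 0% between deficient populations. The counts of 0 between genotypes are near it, so nothing is read from them. Of 23 genes of DNA sensing and the inflammasome, which include cGAS, STING, ASC and caspase-1, 0 were called between genotypes in either population, with medians of −0.471 in LSK and 0.39 in GMP. In wild type 1 of the 23 was called, as Il18, the interleukin-18 gene, fell in GMP by 4.54 (SE 0.856, adjusted p = 0.0319). Of 32 genes of the type I interferon response, 0 were called between genotypes in either population, with medians of −0.865 in LSK and 0.588 in GMP. In wild type 4 of the 32 fell in GMP, namely Rtp4, Ifi44, Oas2 and Ifit3 with differences of −5.85, −5.36, −4.64 and −4.56 (adjusted p between 0.0143 and 0.0468; Ifit3 was well above background on 1 of 2 GMP arrays), and 28 of 32 had a value below 0, with a median of −1.23 against −0.01 over all probes. Of the PYHIN members with values below 0 in this comparison, Ifi204, Mndal, Aim2 and Ifi202b, none was called. Over all probes 603 were called in wild type, 77 with quantile normalization and 166 with no filter on dim probes. Whether the listed genes stayed called there was not tested. In deficient cells 0 of the 32 were called and 16 lay on each side of 0. At an unadjusted p under 0.05, 3340 of all probes passed between genotypes in LSK and 1792 in GMP.

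Among the brightest probes of 15849 named genes, those most alike Ifi202b (A_55_P2032167) over the 8 arrays were Pcf11, a factor of RNA 3′ end formation (Pearson r = 0.958), Dapk2, a death-associated kinase (0.952), Hbq1b, a globin (0.947), Gm14308 (0.945) and Sirpb1a, a paired receptor of myeloid cells (0.941). Pyhin1 was most like Ctsh, a lysosomal cathepsin (0.994), and Cx3cr1, the fractalkine receptor of monocytes (0.993). Cx3cr1 was on the monocyte list, of which 5 of 11 measured genes rose from LSK to GMP in wild type, against 1.54% of all probes called. The closest to Ifi204 were Abtb2 (0.980) and Rab3il1 (0.978), to Mndal Cracd (0.962) and Tjp1 (0.956), to Mnda Cep72 (0.968) and Palb2 (0.891), and to Aim2 Pira2 (0.965) and Srbd1 (0.964). These values describe 8 arrays that share 4 groups, and whether a probe also binds transcripts of a closely similar PYHIN gene was not tested.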

How the data were processed

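Per the labels' protocols, RNA of sorted cells was extracted with Trizol and labelled with Cy3 in a low-input amplification. Per the file headers, scans were quantified by Agilent Feature Extraction 10.7.3.1 and the design was annotated on mm9, and the processed signal is a background-corrected intensity on a linear scale. The authors deposited a table of log2 values as well, which matched the probe-centred log2 signals scaled to the 75th percentile (r from 0.99967 to 0.99996). Its column medians were 0.12, −0.27, 0.041, 1.2, −0.13, −0.14, 0.32 and −0.11, in the order wild-type LSK, deficient LSK, wild-type GMP, deficient GMP. Further steps are not given in the sources used.

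The log2 processed signal was taken relative to the 75th percentile of the 59305 non-control spots of its array, without outlier spots, as a mean over the spots of each probe. No spot was saturated (0 on each array). Probes were named through RefSeq accessions in a gene table of GRCm38.p6 (26582 of 55681 probes, 20145 symbols), with older names as synonyms, and for a list the brightest kept probe stood for its gene. Fits used limma 3.58.1 in R 4.3.3 on 4 group means over 8 arrays (4 residual and 5.7 prior degrees of freedom) with Benjamini-Hochberg adjustment over all 39098 probes and a threshold of 0.05. Files were read with the R package data.table (version 1.17.8), figures drawn with matplotlib 3.10.9 and promoters aligned with Biopython 1.88. The number of arrays limits the precision.

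The members and lists were chosen with earlier results of these data known. Results for some genes are not reported here. Named were all members, the other measured PYHIN genes, called genes of each list (at most 4), Ackr1 and the nearest measured genes, and the genes most alike a member. Background correction, scaling, filters, array weights, blocks, the deposited table and left-out arrays were tried as alternatives.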

Additional observations from a re-analysis of the deposited data

Results flagged for a closer look

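The Pyhin1 probe A_55_P2036357 was picked out because its genotype difference ran in opposite directions in the populations. The deficient pair exceeded the wild-type pair in LSK and fell short of it in GMP, without overlap, so that the difference in GMP minus that in LSK was −3.66 (SE 0.929). The test of this difference itself did not pass (limma, adjusted p = 0.975). Deficient LSK replicate 2, with the weak signal, and wild-type LSK replicate 1 were not well above background at this probe. The other Pyhin1 probes gave −1.37 and −1.06 for the same quantity.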

How the results depend on the processing

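Of the 9 member probes, 1 passed the threshold between genotypes in LSK, 2 in GMP, 2 between wild-type populations, 0 between deficient populations and 0 in the difference between genotypes of the population difference, and the last count was 0 under every alternative run. In LSK the count was 0 with no filter on dim probes, with only probes well above background on all 8 arrays, with 1 probe per gene, with array weights and without the 2 arrays that stood apart, and 2 with the slide row as a block (606 of all probes, against 79). In GMP it was 1 with quantile normalization, scaling to the median, no filter and 1 probe per gene, and 0 with the all-array filter, with both arrays left out and when the 4 GMP arrays were fitted alone. Between wild-type populations it was 1 with normexp, scaling to the median, the all-array filter and 1 probe per gene, 0 with quantile normalization and with no filter, and 4 with array weights (2448 of all probes, against 603). Between deficient populations it was 3 with normexp and 1 when the 4 deficient arrays were fitted alone. Leaving out 1 array at a time gave 0 to 1 in LSK, 1 to 2 in GMP, 0 to 3 between wild-type and 0 to 3 between deficient populations. The all-array filter left 3 member probes and 1 probe per gene left 6, and the causes of the other changes were not tested. Scaling to the median moved the median of all probes from 0.203 to −0.369 in LSK and from 0.146 to −0.145 in GMP.

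Same-numbered arrays of a population lay in 1 slide row, and the labels give no other link between them (r of deviations −0.293 and 0.261 between genotypes in LSK and GMP). With the replicate block, 1, 2, 2 and 0 member probes passed, in the order LSK, GMP, wild-type populations and deficient populations, of 97, 62, 626 and 0 probes in all, and it changed no member's call.

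No member called in the report reversed. Among uncalled values, GMP minus LSK in wild type turned to 0.085 (normexp), 0.015 (quantile) and 0.215 (median scaling) for Ifi202b at A_51_P151182 and to 0.053 (quantile) at A_55_P2032167. In deficient cells it turned to 0.15 (normexp) and 0.34 (median scaling) for Ifi204, to −0.17 (normexp) for Mnda, to −0.055 (normexp) for Pyhin1 at A_55_P2036357 and to −1.08 (quantile) for Mndal, and, with both arrays left out, to −0.77 for Mndal, −1.08 for Mnda and −0.76 for Aim2. Leaving out 1 array at a time gave −0.77 to 0.55 for that Ifi202b probe, and in deficient cells −0.79 to 0.25 for Ifi204, −1.28 to 1.65 for Mnda and −0.46 to 0.50 for Mndal.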
